A study of Mus musculus with 13 samples.

Results

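Soleus, a slow muscle, and the extensor digitorum longus (EDL), a fast muscle, were compared across genes in mice of the *mdm* genotype (muscular dystrophy with myositis, an allele of the titin gene Ttn). The libraries were chosen by their titles, 3 of *mdm* soleus and 5 of *mdm* EDL, which are 8 of the 13 libraries used. Genes were taken that reached a normalized count of 10 in 3 or more of those 13 libraries, 17069 of 17924. The mice were of the strain B6C3Fe a/a-Ttn mdm/J, so that muscles of both groups carry the same deletion in Ttn, and the labels name no treatment. Soleus came from mice 33, 36 and 38 days old and EDL from mice 38, 38, 42, 38 and 38 days old. Total RNA of whole muscles was sequenced. The study took its muscles, wild-type ones included, from fewer mice than muscles, so some muscles share an animal. The labels do not say which, and the fit takes all libraries as independent. By age, soleus replicates 1 and 2 share no mouse with any EDL library. Wild-type muscle is not analysed here, so nothing here shows what the *mdm* allele changes.

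Slow and fast fibres build the same sarcomere from different members of the same gene families. Slow fibres use the myosin heavy chain of Myh7 with its own light chains, troponins and tropomyosin, refill the sarcoplasmic reticulum with the calcium pump of Atp2a2 and live mainly on oxidation. Fast fibres use the heavy chains of Myh2, Myh1 and Myh4 (types 2A, 2X and 2B, in order of rising speed), the pump of Atp2a1 and the calcium buffer parvalbumin, and draw on glycogen and glycolysis. Mouse soleus is a mixture of type 1 and type 2A fibres, while mouse EDL holds mainly 2X and 2B fibres.

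The promoters of 4 sarcomere genes are shown because these genes carry the contrast, 2 of them lower in soleus (Myh4 and Mybpc2) and 2 higher (Tnni1 and Myl3). The sequences are those of RefSeq, build GRCm38.p6, from 250 bases before to 50 bases after the start site, 5′ to 3′ on the strand of the gene, and capitals mark matches to the MCAT motif CATTCC, on either strand, and to MEF2.
Myh4, chr11:67237562-67237861, plus strand: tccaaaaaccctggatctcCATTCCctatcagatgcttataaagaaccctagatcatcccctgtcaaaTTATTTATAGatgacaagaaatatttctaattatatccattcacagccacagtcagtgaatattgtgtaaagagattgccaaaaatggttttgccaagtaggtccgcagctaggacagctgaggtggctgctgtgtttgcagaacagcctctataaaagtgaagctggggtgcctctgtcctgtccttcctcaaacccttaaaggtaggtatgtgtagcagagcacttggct
Mybpc2, chr7:44524620-44524919, minus strand: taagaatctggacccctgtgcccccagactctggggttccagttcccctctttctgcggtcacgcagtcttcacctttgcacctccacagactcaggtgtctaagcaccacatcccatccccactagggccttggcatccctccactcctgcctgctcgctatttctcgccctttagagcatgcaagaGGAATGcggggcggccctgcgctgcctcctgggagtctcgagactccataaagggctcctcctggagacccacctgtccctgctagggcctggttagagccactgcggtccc
Tnni1, chr1:135799171-135799470, plus strand: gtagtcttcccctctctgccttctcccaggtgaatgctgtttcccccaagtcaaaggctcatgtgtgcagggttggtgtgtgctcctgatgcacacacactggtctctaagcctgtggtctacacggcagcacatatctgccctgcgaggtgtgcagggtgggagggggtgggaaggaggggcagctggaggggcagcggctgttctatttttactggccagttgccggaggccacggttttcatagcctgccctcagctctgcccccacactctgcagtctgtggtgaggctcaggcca
Myl3, chr9:110763428-110763727, plus strand: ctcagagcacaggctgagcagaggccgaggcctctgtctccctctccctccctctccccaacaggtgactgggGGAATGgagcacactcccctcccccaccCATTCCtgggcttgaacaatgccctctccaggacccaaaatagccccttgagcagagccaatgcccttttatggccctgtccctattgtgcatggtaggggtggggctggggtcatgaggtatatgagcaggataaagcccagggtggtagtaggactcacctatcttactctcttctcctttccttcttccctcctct
Of the 13 slow and fast sarcomere genes called different between the muscles by edgeR, 9 had an entry in the table, with 11 promoters in all. An MCAT match lay in 5 of the 11, those of Myh4, Mybpc2, Myh1, Tpm1 and Myl3, against 14.7% of the 32851 promoters in the table. A MEF2 match lay in 2, those of Myh4 and Myh1, against 3.2% of all promoters, and the E-box CANNTG in 10, against 72.3%. The promoter of Tnni1 shown has no match to MCAT or MEF2, hence no capitals. These are matches of letters in a window of 300 bases.

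EDL libraries held 12059090 to 48835209 counts and soleus libraries 9114176 to 39484945, and no pair of libraries was a duplicate. Mitochondrial genes took 9.63% to 18.7% of the counts in EDL and 13.4% to 14.9% in soleus. Xist, the RNA of the inactive X chromosome, stood at 1417 in EDL replicate 3 and 764 in EDL replicate 5 and at no more than 6.88 in the other 6 libraries, where Ddx3y of the Y chromosome stood at 2699 to 3809, so that 2 EDL libraries and no soleus library had the female pattern. Genes known from liver stood apart in soleus replicate 1, where albumin (Alb) was at 1205 against 61.4 and 39.5 in the other soleus libraries and 2.98 to 16.3 in EDL, and Ahsg at 255 against 3.57 and 0 in the other soleus libraries and 0 in all of EDL. Neither of these was called. F2 (prothrombin), also known from liver, was called higher, at 54.2, 20.7 and 22.4 in soleus and 2.71 to 5.97 in EDL (2.87 ± 0.49, edgeR, adjusted p = 0.00699). That call was lost in every fit without 1 library. The part of these differences in other results was not tested, apart from the fits without each library.

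In 1 edgeR quasi-likelihood fit of all 13 libraries, 91 genes were higher in soleus than in EDL (0.533% of those tested) and 76 were lower (0.445%), which together is 0.978%. Values by library are normalized counts (the read count over the size factor of the library) in the order of the replicate numbers, and a value with ± is a log2 fold change, soleus minus EDL, with its standard error. A gene was called where its Benjamini-Hochberg adjusted p was below 0.01 and its log2 fold change beyond 1 in either direction. The median log2 fold change of all genes was −0.03. For all 167 genes the libraries of the muscles did not overlap, which was so for 5.33% of all genes tested with soleus above EDL and 5.72% with soleus below. Hence their sign was bound to be the same among the libraries of label code T4 (2 soleus, 1 EDL) and of T6 (1 soleus, 2 EDL). The labels do not explain these codes, and with a block for them 27 of the 91 and 35 of the 76 were still called. How many genes were called depended on single libraries. Without soleus replicate 1 the counts were 17 higher (0.0996%) and 2 lower (0.0117%), without soleus replicate 2 they were 19 and 4, and without soleus replicate 3 they were 38 and 17. Leaving out EDL replicate 1, 2, 3 or 5 gave 41 and 56, 41 and 34, 25 and 32, or 43 and 43, and a block for the label code gave 31 (0.182%) and 55 (0.322%). DESeq2 called more, 270 higher (1.59%) and 363 lower (2.14%).

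**Figure D1:**
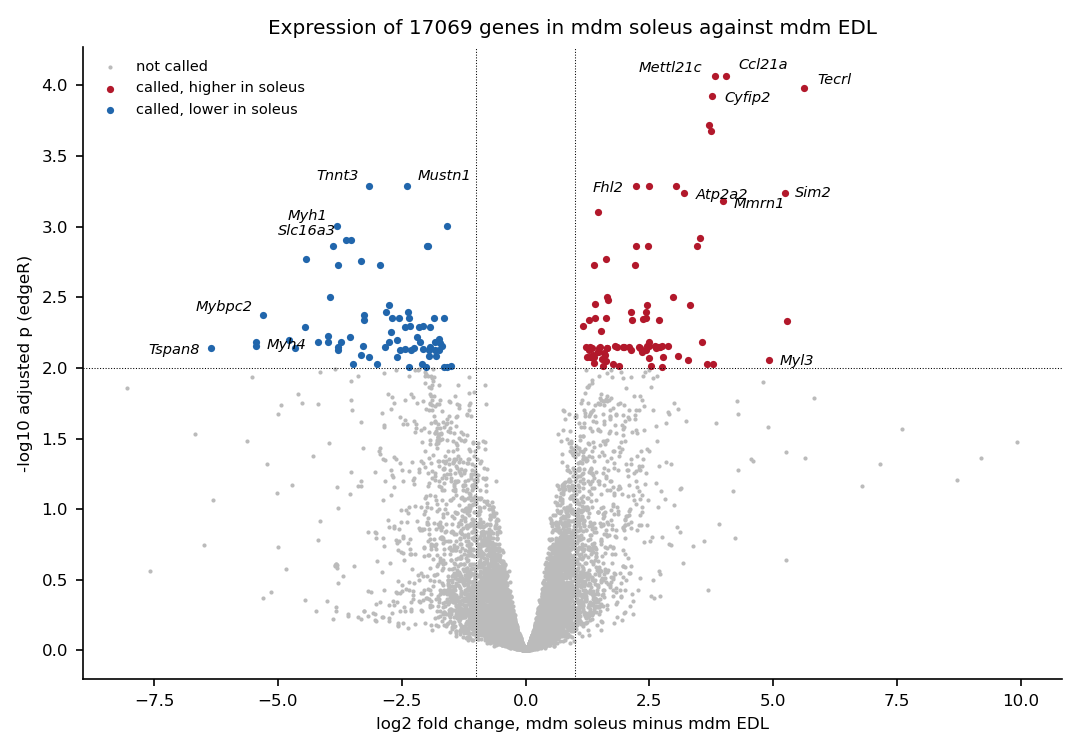
Log2 fold change (soleus minus EDL) against the −log10 of edgeR's adjusted p, a point per gene, with dotted lines at the limits of the call. The 91 genes higher in soleus (red) and the 76 lower (blue) lie above the horizontal line, with Tecrl farthest right and Tspan8 farthest left among them.

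A core of 17 genes was called in every fit without 1 library and in every other alternative, 15 of them higher in soleus and 2 lower. The higher ones were Tecrl, Sim2, Ccl21a, Mmrn1, Mettl21c, Cyfip2, Ccl21b, Gm21541 and Gm13304 (near copies of Ccl21 genes), Atp2a2, Myl6b, Slc1a3, Homer2, Fhl2 and Sbk1. The lower ones were Tnnt3, the fast troponin T, and Mustn1, a small nuclear protein of the musculoskeletal system. Mustn1 was at 3227, 2713, 3215, 2339 and 2451 normalized counts in EDL and at 559, 451 and 573 in soleus, a log2 fold change of −2.40 ± 0.27 (edgeR, adjusted p = 0.000515). The lowest EDL library held several times the highest soleus library. In GRCm38 Tecrl lies on chromosome 5, 83278145 to 83355195, Mettl21c on chromosome 1, 44009408 to 44020034, Tnnt3 on chromosome 7, 142498836 to 142516009 and Mustn1 on chromosome 14, 30879200 to 30881610.

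Slow sarcomere genes mostly stood higher in soleus. Of the 16 tested, 4 were called higher (0.533% of all genes were) and none lower, and 12 had a positive log2 fold change (47.4% of all genes had). Every soleus library lay above every EDL library for 11 (5.33% of all genes). The median log2 fold change was 2.75. Myl3, the slow essential light chain that the heart ventricle shares, was at 539, 131, 205, 121 and 1442 in EDL and 12555, 11854 and 19527 in soleus. The lowest soleus library was several times the highest EDL library, with a log2 fold change of 4.92 ± 0.91 (edgeR, adjusted p = 0.00885). Myl6b, another slow essential light chain, was low in both muscles, at 50.7, 67.6, 19.9, 52.3 and 58.2 in EDL and 495, 541 and 201 in soleus (3.04 ± 0.34, edgeR, adjusted p = 0.000515). It alone of the 4 was called with every library left out in turn and also with the code block. Tnni1, the slow troponin I, was at 6472, 2234, 2041, 3947 and 11439.6 in EDL and 38408, 29641 and 37083 in soleus (2.76 ± 0.47, edgeR, adjusted p = 0.00699). Tpm3, the slow tropomyosin, was at 4539.7, 735, 952, 646 and 4753 in EDL and 29722, 29585 and 36261 in soleus (3.79 ± 0.70, edgeR, adjusted p = 0.00943), and its retrogene Tpm3-rs7, which may share its reads, was called as well.

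The main slow genes missed the call while their libraries did not overlap. Myh7 was at 11097, 1242, 2172, 700.3 and 9798 in EDL and 160463, 182496 and 98825 in soleus, a log2 fold change of 4.89 ± 1.12 with an adjusted p of 0.0261 from edgeR. EDL replicates 1 and 5 held several times the Myh7 of the other EDL libraries, and the same 2 libraries were the highest in EDL for Myl3, Myl2, Tpm3, Tnnt1, Tnni1 and Tnnc1. Myl2, the slow regulatory light chain, was at 531 to 7072 in EDL and 46822 to 73702 in soleus (4.27 ± 0.89, edgeR, adjusted p = 0.0171). Tnnt1, the slow troponin T, was at 1522 to 10243 and 32446 to 42706 (2.99 ± 0.63, edgeR, adjusted p = 0.0178), and Tnnc1, the slow troponin C, at 129 to 1639 and 3024 to 6724 (2.74 ± 0.79, edgeR, adjusted p = 0.0741). Myh6, next to Myh7 on chromosome 14 and near it in sequence, had 4.78 ± 0.94, and Myh7b 2.30 ± 0.68. For Myoz2 the value was 1.08 ± 0.32. The 5 others of the list had small values, with Csrp3 at 0.03, Actn2 at −0.15, Smpx at −0.25, Mybpc1 at −0.35 and Ankrd2 at −0.41, and the libraries of the muscles overlapped. DESeq2 and limma each called 7 of the 16, edgeR with the code block 1, and edgeR without EDL replicate 1, 2, 3 or 4, or without any 1 soleus library, 1.

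Fast sarcomere genes were lower in soleus without exception in sign. Of the 15 tested, 9 were called lower (0.445% of all genes were) and none higher, and all 15 log2 fold changes were negative (52.6% of all genes had one). Every soleus library lay below every EDL library for 14 (5.72% of all genes). Their median log2 fold change was −3.16. Myh4, the heavy chain of the fastest fibres, was at 268267, 481027, 790666, 182739 and 144108 in EDL and 4138, 3522 and 18198 in soleus (−5.44 ± 0.92, edgeR, adjusted p = 0.0066). Soleus replicate 3 held more than the other soleus libraries and still a fraction of the lowest EDL library. Mybpc2, the fast myosin binding protein C, was at 27496, 96833, 129556, 51674 and 43075 in EDL and 1181, 963 and 3179 in soleus (−5.30 ± 0.82, edgeR, adjusted p = 0.00425), with soleus replicate 3 again the highest of its group. Myh1 was at 335993, 619886, 583161, 331323 and 440423 in EDL and 25342, 35711 and 38395 in soleus (−3.80 ± 0.47, edgeR, adjusted p = 0.000993).

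The fast form of each troponin and of tropomyosin was among the calls. Tnnt3 was at 193233, 214824, 267191, 178513 and 243934 in EDL and 29857, 19052 and 24848 in soleus (−3.16 ± 0.36, edgeR, adjusted p = 0.000515), and its adjusted p was at most 0.00695 with 1 library left out. Tnni2, the fast troponin I, had a log2 fold change of −3.32 ± 0.45, Tnnc2, the fast troponin C, −3.73 ± 0.63, and Tpm1, the fast tropomyosin, −2.37 ± 0.36 (edgeR, adjusted p = 0.00175, 0.0066 and 0.00402). At the Z-disc Myoz1, which binds calcineurin and alpha-actinin, had −3.79 ± 0.53, and at the M-band Myom2 had −2.72 ± 0.45 (edgeR, adjusted p = 0.00188 and 0.0056). Members that missed the call were Mylpf at −2.03 ± 0.39, Actn3 at −2.24 ± 0.50, Mylk4 at −3.86 ± 0.73, Mylk2 at −1.92 ± 0.50, Myh2 at −1.49 ± 0.51 and Myl1 at −0.95 ± 0.30, with adjusted p values from edgeR of 0.0107, 0.0238, 0.0102, 0.0475, 0.144 and 0.11. Without soleus replicate 1, or without soleus replicate 2, 1 of the 9 calls was left.

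**Figure D2:**
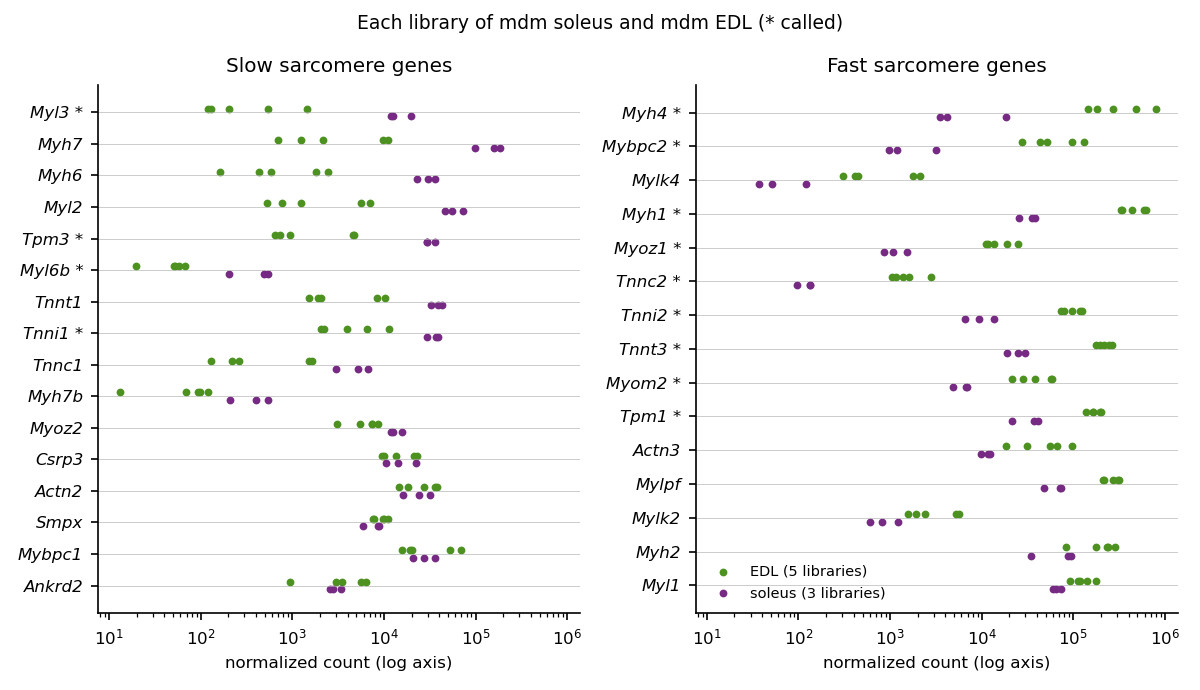
Normalized count (log axis) of each slow and fast sarcomere gene in the 5 EDL (green) and 3 soleus (purple) libraries, a point per library, with an asterisk at the genes called by edgeR. The colours stand apart for 11 of the 16 slow and 14 of the 15 fast genes.

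The makeup of the myosin heavy chains was taken from normalized counts per kilobase of exon, to put the genes of a library on 1 scale. The length is that of all annotated exons joined, 6016 bases for Myh4 and 11772 for Myh8. It can exceed the length of the mRNA and so lower the share of a gene. Of the 4 adult genes (Myh7, Myh2, Myh1 and Myh4), Myh7 made up 49.9% ± 3.96 (SD, n = 3) in soleus and 0.416% ± 0.456 (SD, n = 5) in EDL. The difference of 49.5 percentage points had p = 0.0179 in an exact permutation test over all 56 arrangements, two-sided, the smallest p this design allows. Myh1 made up 46.1% ± 7.68 in EDL and 16.3% ± 6.69 in soleus, Myh4 34.9% ± 12.6 and 5.10% ± 5.93, and Myh2 18.6% ± 8.40 and 28.7% ± 8.58, so the share of Myh2 overlapped between the muscles.

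The embryonic heavy chain Myh3, which regenerating fibres use, took part in the makeup of *mdm* soleus. When Myh3 and the neonatal Myh8 were added to the sum, Myh3 made up 32.8% ± 9.67 in soleus (24.2% to 43.3%) and 2.53% ± 1.56 in EDL (0.687% to 4.28%), and Myh7 then made up 32.7% in soleus. Undivided by length, Myh7 stood above Myh3 in soleus replicates 2 and 3 and below it in replicate 1, so their near-equal shares depend on the lengths used. In normalized counts Myh3 was at 36382, 17629, 10524, 14604 and 33438 in EDL and 167407, 111947 and 50000.5 in soleus, a log2 fold change of 2.29 ± 0.49 that missed the call (edgeR, adjusted p = 0.0199). The lowest soleus library, replicate 3, lay above the highest EDL library. Soleus replicates 1, 2 and 3 came from mice 33, 36 and 38 days old, so Myh3 was lower the older the mouse. The EDL mice were 38 or 42 days old. For soleus replicates 1 and 2 muscle and age cannot be told apart, and the part of age was not tested. Myh8, the neonatal chain, went the other way, at 27979.5, 26261, 30661, 17651 and 22198 in EDL and 7403, 7111 and 6260.2 in soleus (−1.85 ± 0.29, edgeR, adjusted p = 0.00446), and was the only call among the 6 embryonic and neonatal genes (0.445% of all genes were called lower). It was not called without EDL replicate 3 or any 1 soleus library. Of the other 4, Tnnt2 was at 0.82 ± 0.41, Myl4 at 0.01 ± 0.32, Actc1 at −0.95 ± 0.48 and Mybph at −1.80 ± 0.65, none past the limits.

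**Figure D3:**
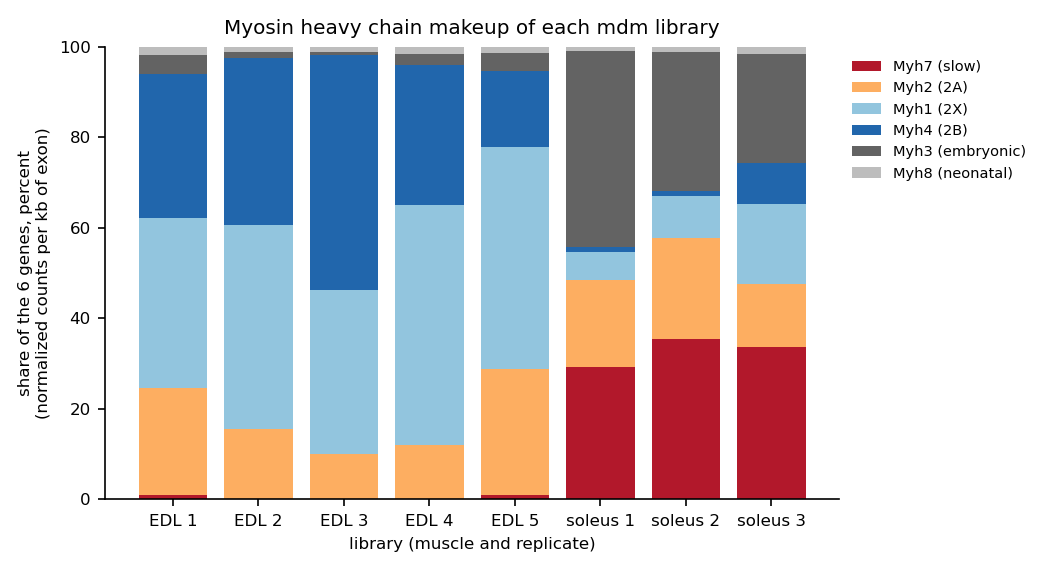
Share of each of 6 myosin heavy chain genes in the sum of their normalized counts per kb of exon (percent), a bar per library. Myh7 (red) and Myh3 (dark grey) fill most of each soleus bar, and Myh1 and Myh4 (blue) most of each EDL bar.

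The skeletal heavy chain genes lie next to each other on chromosome 11 (GRCm38), with Myh3 at 67078300 to 67102291 at one end and Myh13 at the other. Within this stretch the differences changed sign, from 2.29 ± 0.49 at Myh3 to −1.49 ± 0.51 at Myh2, −3.80 ± 0.47 at Myh1, −5.44 ± 0.92 at Myh4, −1.85 ± 0.29 at Myh8 and −1.74 ± 0.29 at Myh13, the chain of extraocular muscle, which was called lower (edgeR, adjusted p = 0.0062). A pair of long noncoding RNAs of the cluster were called lower with them. The lincRNA 2310065F04Rik, between Myh3 and Myh2 on the minus strand, was at 145 to 577 in EDL and 13.6 to 24.1 in soleus (−3.95 ± 0.58, edgeR, adjusted p = 0.00314). Myhas, which overlaps Myh1 and runs antisense up to Myh4, was at 321 to 2229.8 and 37.7 to 65 (−4.66 ± 0.82, edgeR, adjusted p = 0.00728). The strand setting of the counting is not given in the sources used here, so reads of Myhas cannot be told apart from those of its neighbours.

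**Figure D4:**
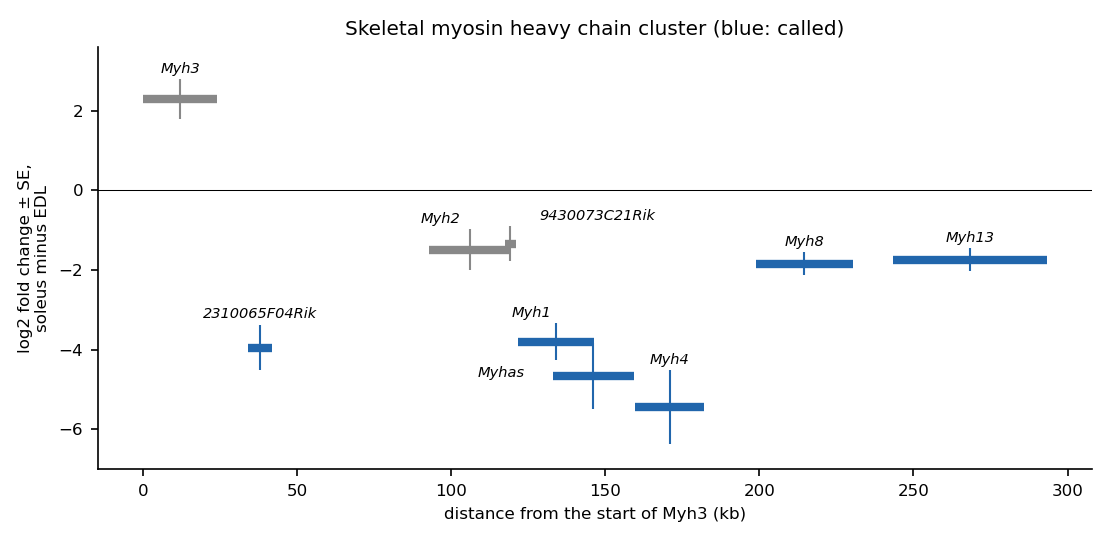
Log2 fold change (soleus minus EDL, bars ± SE) of the genes of the myosin heavy chain cluster against the distance from the start of Myh3 in kb. Horizontal bars span the genes, blue where called, with Myh3 alone above 0 and Myh4 lowest.

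The 2 calcium pumps had values of opposite sign. Atp2a2, the slow and cardiac pump of the sarcoplasmic reticulum, was at 7613, 4644, 4481, 5144 and 11446 in EDL and 66697, 65169 and 49182 in soleus (3.19 ± 0.37, edgeR, adjusted p = 0.000575, at most 0.00539 with 1 library left out). The fast pump Atp2a1 was at 28746, 122814, 108252, 54261 and 53085 in EDL and 7340.2, 12073 and 11143 in soleus, which did not overlap, with a log2 fold change of −2.85 ± 0.55 just outside the call (edgeR, adjusted p = 0.0109). Tecrl, a reductase-like protein of the endoplasmic reticulum that is linked to calcium handling in the heart, had the largest log2 fold change of all genes called higher, 5.63 ± 0.51. It was at 8.52, 3.83, 3.98, 0 and 6.76 in EDL and 252, 193 and 297 in soleus (edgeR, adjusted p = 0.000105), low in every EDL library and well above them in every soleus library.

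Atp2a2 and Tecrl were the calls among the 23 calcium handling genes tested, both higher (0.533% of all genes were). The median of the list was −0.87. Parvalbumin (Pvalb) was at 20177, 33278, 51167, 50993 and 33406 in EDL and 542, 686 and 2478 in soleus, a log2 fold change of −4.94 ± 1.05 that missed the call (edgeR, adjusted p = 0.0182). Soleus replicate 3 was again the highest of its group. The fast calsequestrin Casq1 had −1.74 ± 0.36 and the slow and cardiac Casq2 0.87 ± 0.32 (edgeR, adjusted p = 0.0169 and 0.19). Sarcolipin (Sln), a small inhibitor of the pumps, was at 7576 to 18140.5 in EDL and 13640.3 to 20102 in soleus (0.48 ± 0.40, edgeR, adjusted p = 0.644), so the muscles overlapped. Among 18 genes of membrane excitability, 1 was called lower (0.445% of all genes were) and none higher. Kcnc4, a fast potassium channel, was at 115, 232, 263, 162 and 116 in EDL and 15.3, 18.6 and 22.4 in soleus (−3.27 ± 0.50, edgeR, adjusted p = 0.00425). That call was lost without any 1 soleus library. The modulatory channel subunit Kcng4 was at 77.1 to 486 and 2.48 to 12 and just missed the call (edgeR, adjusted p = 0.0115), and the chloride channel Clcn1 had −2.04 ± 0.53 (adjusted p = 0.05).

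Genes of glycolysis and glycogen breakdown mostly stood lower in soleus. Of 32 genes tested, 6 were called lower (0.445% of all genes were) and none higher, and 30 had a negative log2 fold change (52.6% of all genes). The libraries lay apart with soleus below for 22 (5.72% of all genes). The median was −1.44. The called genes act from glycogen breakdown to lactate export, apart from Fbp2, which runs the opposite way to glycolysis. Phkg1, the catalytic subunit of phosphorylase kinase, was at 2174, 2752, 3785, 1774 and 2376 in EDL and 135, 97.8 and 259.6 in soleus (−3.98 ± 0.67, edgeR, adjusted p = 0.0066). Slc16a3, the exporter of lactate, was at 3339, 3043, 2407, 2025 and 2129 in EDL and 240.4, 169 and 217 in soleus (−3.63 ± 0.46, edgeR, adjusted p = 0.00124). Pygm, the muscle glycogen phosphorylase, Aldoa, the aldolase of muscle, Eno3, the muscle enolase, and Fbp2, the muscle fructose bisphosphatase, had −2.60 ± 0.47, −2.77 ± 0.47, −3.16 ± 0.58 and −3.32 ± 0.60 (edgeR, adjusted p = 0.00834, 0.0066, 0.00833 and 0.00809).

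The 2 positive values in the glycolysis list belong to isoforms of oxidative tissue, Hk1 at 1.41 ± 0.30 and Ldhb, the heart lactate dehydrogenase, at 1.70 ± 0.49 (edgeR, adjusted p = 0.0182 and 0.0735). Ldha, the muscle form, had −1.53 ± 0.46. Gys2, the glycogen synthase of liver and fat, which is outside the list, was called higher (3.27 ± 0.60, edgeR, adjusted p = 0.00872), at 4.68 to 28.1 in EDL and 80.8 to 138 in soleus. DESeq2 called 18 of the 32 glycolysis genes lower. Without soleus replicate 1 or without soleus replicate 2 edgeR called none of them, without EDL replicate 2, 3 or 5 or soleus replicate 3 it called 1, and without EDL replicate 1 it called 2.

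Gapdh itself had −1.79 ± 0.41 and missed the call (edgeR, adjusted p = 0.0264), yet copies of it entered the calls. Of 1289 processed pseudogenes tested, 11 were called lower (0.853%) and none higher, and for 10 of the 11 the closest coding sequence was that of Gapdh, with 92.1% to 99.3% identity. Reads of Gapdh mRNA and of such copies cannot be told apart by these counts. Aldoart1, an intronless copy of Aldoa, was likewise called lower (−3.28 ± 0.56). Of the 76 genes lower in soleus, 58 are protein coding, 11 are these processed pseudogenes and 7 are other noncoding genes, while all 91 higher genes are protein coding.

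No gene of the oxidative lists was called by edgeR. With 0.978% of all genes called, that says little about lists of these sizes. Of all genes, 47.4% had a positive and 52.6% a negative log2 fold change. None of the 33 genes of fatty acid uptake and oxidation was called (median 0.13, 20 positive), nor any of 22 of the citric acid cycle (median −0.59, 20 negative), 37 of complex I (median −0.53, all negative) or 46 of complexes III, IV and V (median −0.47, 43 negative). The 13 mitochondrially encoded proteins had a median of −0.28 and the 81 mitochondrial ribosomal proteins one of −0.25, with no call in either. In the order given, every soleus library lay below every EDL library for 0, 7, 10, 4, 0 and 11 genes of the 6 lists (5.72% of all genes). Every soleus library lay above for 8, 1, 0, 1, 0 and 0 (5.33% of all genes). At an unadjusted p under 0.05 these 6 lists held 8, 9, 12, 4, 0 and 8 genes, where 15.1% of all genes tested lay under that limit, so the first 3 lists were above that share and the other 3 below it. DESeq2 called Fabp3, Fabp4, Lpl and Slc27a1 higher in the first list, Idh2 higher in the second and Cox6a2 lower in the fourth, and limma called none. At the level of single genes, Sdha of complex II was at 8539, 12622, 15075, 8678 and 14680.2 in EDL and 7538, 6768 and 6589 in soleus (−0.77 ± 0.33, edgeR, adjusted p = 0.267), so every soleus library lay below every EDL library without a call. Myoglobin (Mb) was at 59568 to 176706 and 63671 to 65426 (−0.46 ± 0.44, edgeR, adjusted p = 0.694). Lpl, the lipase that frees fatty acids from lipoproteins, had 1.71 ± 0.40, and Fabp3, the fatty acid carrier of heart and slow muscle, 1.17 ± 0.30 (edgeR, adjusted p = 0.0279 and 0.0431).

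Among 34 transcription factors of fibre type and muscle, 1 was called, higher in soleus (0.533% of all genes were). Prox1, a homeobox factor known from slow fibres and from lymphatic vessels, was at 82.2, 77.2, 39.8, 34.9 and 31.1 in EDL and 326, 541 and 174 in soleus (2.69 ± 0.43, edgeR, adjusted p = 0.00457). It was not called without EDL replicate 3 or 5 or soleus replicate 1 or 2. Sox6, which represses slow genes in fast fibres, had −1.38 ± 0.38, Tbx15, a factor of glycolytic fibres, −1.26 ± 0.36, and Ppargc1a, the coactivator of mitochondrial genes, −0.64 ± 0.80 (edgeR, adjusted p = 0.0628, 0.0734 and 0.78). Myog and Myod1, which drive myogenic differentiation, had −0.16 ± 0.32 and −0.22 ± 0.27.

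Among 18 factors that mark position along the body and limb, En1 and Tbx18 were called higher in soleus and Zic1 lower. Of all genes, 0.533% were called higher and 0.445% lower. En1, a homeobox factor, was at 2.13, 5.1, 0, 6.53 and 2.71 in EDL and 33.9, 40 and 13.8 in soleus (3.07 ± 0.56, edgeR, adjusted p = 0.00817). Zic1, a zinc finger factor, was at 49, 59.3, 59.7, 68.6 and 31.1 and 7.03, 2.14 and 3.44 (−3.55 ± 0.59, edgeR, adjusted p = 0.00609). Tbx18 was at 47.8 to 70.8 and 119 to 181 (1.30 ± 0.24, edgeR, adjusted p = 0.00831). None of the 3 was called with the code block (adjusted p = 0.0451 for En1, 0.016 for Zic1 and 0.0251 for Tbx18), with the T4 and T6 libraries alone, with a replicate block or without any 1 soleus library (in the same order at most 0.0457, 0.0373 and 0.0692 from edgeR with 1 library left out). No Hox gene of the 21 tested was called by edgeR (median 0.04), though 5 had an unadjusted p under 0.05 (15.1% of all genes had), and DESeq2 called Hoxa13 lower. Outside the lists, Sim2, a basic helix-loop-helix factor, was at 4.26, 1.28, 0, 2.18 and 0 in EDL and 81.5, 106 and 43 in soleus (5.23 ± 0.61, edgeR, adjusted p = 0.000575), and Barx2, a homeobox factor known from myogenic cells, at 8.09, 19.1, 13.9, 2.18 and 8.12 and 114, 131 and 124 (3.56 ± 0.60, edgeR, adjusted p = 0.00651). Tbx1, a factor of head and fast limb muscle, was called lower (−2.20 ± 0.36, edgeR, adjusted p = 0.00604). Of the 8 fits without 1 library, Barx2 was called in 2 and Tbx1 in 4, and Barx2 was not called with the code block.

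A pair of lysine methyltransferases of muscle had values of opposite sign. Mettl21c was at 631, 281, 342, 333 and 345 in EDL and 5002, 3663 and 7698 in soleus (3.82 ± 0.33) and shared the smallest adjusted p of all genes with Ccl21a (edgeR, 8.54e-05). It was the only call among 8 such genes (0.533% of all genes were called higher). Its relative Mettl21e was at 180.1, 228, 392, 107 and 100.1 and 21.5, 10 and 20.6 (−3.53 ± 0.73, edgeR, adjusted p = 0.0169), which missed the call, though no library of one muscle reached the other. Among 21 proteins that bind titin or lie beside it, 1 was called higher (0.533% of all genes were) and none lower. Fhl2, a LIM domain protein, was at 156, 126, 81.6, 96.9 and 196 in EDL and 529, 582 and 741 in soleus (2.23 ± 0.25, edgeR, adjusted p = 0.000515). Ttn itself was at 816224, 870222, 920097, 394844 and 333226 in EDL and 474605, 482522 and 346264 in soleus (−0.62 ± 0.42, edgeR, adjusted p = 0.55), and these counts, taken over the gene as a whole, do not show the deletion. Ankrd23, a titin-binding ankyrin repeat protein, had −1.95 ± 0.45 and its relative Ankrd1 −0.76 ± 0.34 (edgeR, adjusted p = 0.0283 and 0.308).

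Several of the largest differences lay outside these functions. Tspan8, a tetraspanin, was at 316, 665, 1141, 234 and 183 in EDL and 4.97, 2.14 and 15.5 in soleus and had the lowest log2 fold change called, −6.36 ± 1.11 (edgeR, adjusted p = 0.00717). Car14, a membrane carbonic anhydrase, had −4.77 ± 0.80 and Smco1, a small membrane protein of muscle, −3.88 ± 0.51 (edgeR, adjusted p = 0.00639 and 0.00137). Kcne1l, a subunit of potassium channels, had −3.98 ± 0.66, and Dusp26, a phosphatase, −3.78 ± 0.66 (edgeR, adjusted p = 0.00598 and 0.00707). Of the 8 fits without 1 library, Tspan8, Car14 and Dusp26 were called in 2, Kcne1l in 5 and Smco1 in 6. With the code block Tspan8, Car14, Dusp26 and Kcne1l were not called. Cyfip2, a part of the WAVE complex of actin assembly, was higher in soleus, at 14.1, 27.4, 29.9, 13.1 and 21.6 in EDL and 226, 431 and 182 in soleus (3.75 ± 0.35, edgeR, adjusted p = 0.000118). Dok6, an adaptor of receptor kinases, was called higher at 5 to 5.38 in soleus and 0 to 1.09 in EDL, and Cntn5, a contactin, was called lower at 0 to 0.828 in soleus and 7.96 to 41.4 in EDL, counts too few for a fold to be given. Myostatin (Mstn), the growth inhibitor of muscle, was at 551, 457, 1210.4, 106 and 48.7 in EDL and 2.9, 0.714 and 36.1 in soleus, with −5.62 ± 1.34 outside the call (edgeR, adjusted p = 0.0331).

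Genes of fat cells stood higher in soleus. In whole muscle, more cells of a type and more RNA per cell cannot be told apart. All 12 markers of adipocytes had a positive log2 fold change (median 2.25), which 47.4% of all genes had. The muscles lay apart for 10, with soleus above (5.33% of all genes), and 5 were called higher (0.533% of all genes). Adiponectin (Adipoq) was at 689, 1185, 1095, 3154 and 1286 in EDL and 8221, 4461 and 9076 in soleus (2.30 ± 0.41, edgeR, adjusted p = 0.00728), with EDL replicate 4 the nearest to soleus. Adipsin (Cfd), the hormone resistin (Retn), hormone-sensitive lipase (Lipe) and the factor Pparg had 2.62 ± 0.45, 2.28 ± 0.40, 1.99 ± 0.34 and 1.88 ± 0.35. The markers without Car3, which slow fibres also express, summed to 11284 to 31914 in EDL and 78625 to 94879 in soleus. No adipocyte marker was called with the code block, or without EDL replicate 1, 2, 3 or 5 or soleus replicate 1 or 3, 1 was called without soleus replicate 2, and DESeq2 called 8. Other genes known from fat were among those called, chosen after their values were seen, such as Adig (2.50 ± 0.43), Klb (2.49 ± 0.46) and Ces1d (2.54 ± 0.48). The sum of the 10 muscle fibre markers was 1326140.3 to 2593239 in EDL and 912891 to 1325669.6 in soleus. The part of fat cells in the other differences was not tested.

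A second set of genes, also picked after their values were seen, is known from the lining of lymphatic vessels. Ccl21a, the chemokine those cells release, was at 54.9, 38.3, 19.9, 30.5 and 21.6 in EDL and 554, 666 and 485 in soleus (4.05 ± 0.35, edgeR, adjusted p = 8.54e-05), though reads of its near-identical copies cannot be assigned with certainty. Mmrn1, a secreted multimerin, was at 70.3, 35.7, 19.9, 18.5 and 28.4 and 567, 719 and 428 (3.99 ± 0.47, edgeR, adjusted p = 0.000663). Reln (2.45 ± 0.37) and Flt4, the receptor of lymphatic growth factors (2.42 ± 0.37), were called higher like Prox1 (edgeR, adjusted p = 0.00357 and 0.00402). Lyve1, another marker of these vessels that macrophages share, was at 249, 613, 231, 198 and 101 in EDL and 413, 859 and 279 in soleus and was not called (edgeR, adjusted p = 0.5), and Pdpn overlapped too, at 114 to 206 in EDL and 116 to 253 in soleus. Stab2, of sinusoidal and lymphatic lining, was at 12.2 to 65.7 in EDL and 18.9 to 29.8 in soleus, and Thy1, which fibroblasts and nerve share, at 63.7 to 212 and 50.5 to 108, both with a negative log2 fold change (−0.76 ± 0.51 and −0.78 ± 0.45) and no call (edgeR, adjusted p = 0.54 and 0.449).

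Of 13 markers of endothelial cells, Vwf was called higher (0.533% of all genes were), at 109.6 to 196 in EDL and 334 to 544 in soleus (1.62 ± 0.25, edgeR, adjusted p = 0.00445), and the median of the list was 0.48. The call of Vwf was lost with the code block and without EDL replicate 3 or soleus replicate 2 or 3. Tendon and cartilage markers went the other way. All 13 tested had a negative log2 fold change (median −1.44), which 52.6% of all genes had. Cilp (−2.12 ± 0.36, edgeR, adjusted p = 0.0066) and Ucma (edgeR, adjusted p = 0.00514), both proteins of cartilage matrix, were called lower (0.445% of all genes were). Cilp was at 26961, 31968, 25966, 24593 and 49100.3 in EDL and 6011, 10791 and 4919 in soleus, and the sum of these markers was 43122 to 73139 in EDL and 14566 to 24002 in soleus. Cilp, with means of 31718 in EDL and 7240 in soleus, is a large part of that sum. Ucma was at 29, 17.9, 19.9, 56.6 and 27.1 and 1.66, 1.43 and 0, too few reads in soleus for a fold to be given. Both calls were lost without any 1 soleus library, while DESeq2 called 5 of the 13 lower and edgeR with the code block 4. Scx, the transcription factor that defines tendon cells, had −0.12 ± 0.48. Of 12 Schwann cell markers 11 were positive (median 1.07), of 9 of smooth muscle and pericytes 8 (median 0.92), and none was called by edgeR, limma or DESeq2 (5 and 3 had an unadjusted p under 0.05, both above the 15.1% of all genes). The 14 macrophage markers had a median of −0.09 and the 10 of fibro-adipogenic cells one of 0.08, again with no call by any of the tools (0 and 1 with an unadjusted p under 0.05, both below that share). Of 8 lymphocyte markers Ms4a1 and Cd4 were among the genes tested, at 3.27 to 9.57 and 1.99 to 9.37 in EDL and 5.71 to 13.8 and 3.72 to 9.28 in soleus. The 5 erythroid genes had a median of 1.37 and overlapped between the muscles.

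**Figure D5:**
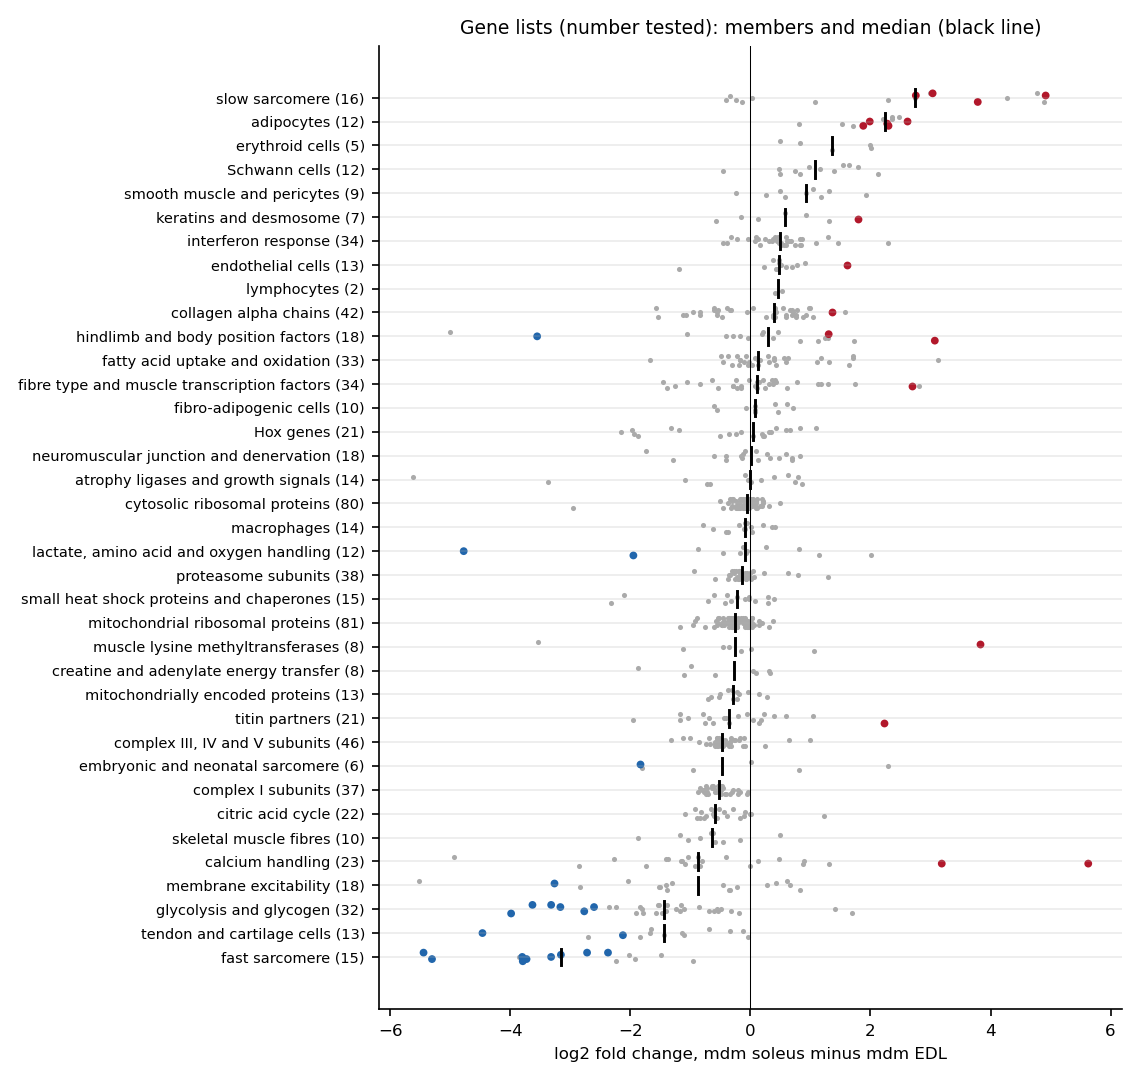
Log2 fold change (soleus minus EDL) of every tested member of each gene list, a point per gene, red or blue where called, with the list's median as a black line and the number tested in brackets. Slow sarcomere and adipocyte genes have the highest medians (2.75 and 2.25), and fast sarcomere genes the lowest (−3.16).

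The other lists held at most 2 calls each, where 0.533% of all genes were called higher and 0.445% lower. Collagens had 1 of 42, Col4a5, a chain of basement membranes (1.36 ± 0.25, edgeR, adjusted p = 0.00855), and keratins and desmosomes had 1 of 7, Pkp2 (1.79 ± 0.31, edgeR, adjusted p = 0.00699). The call of Col4a5 was lost in limma, with the code block, with a replicate block and without each library in turn other than soleus replicate 3, and that of Pkp2 with the code block and without EDL replicate 1, 3 or 4 or any 1 soleus library. Aldh1a1, which makes retinoic acid, was called lower with Car14 among 12 genes of lactate, amino acid and oxygen handling (−1.95 ± 0.35, edgeR, adjusted p = 0.00817). Neither was called without EDL replicate 2 or 3 or any 1 soleus library. Creatine and adenylate transfer (8 genes), chaperones (15), atrophy and growth signals (14), the neuromuscular junction (18), proteasome (38), cytosolic ribosome (80) and interferon response (34) held none by edgeR or limma, with list medians between −0.27 and 0.50, while DESeq2 called Ckm, Ak1, Mstn, Ddit4l and Rpl3l lower. With 0.978% of all genes called by edgeR, the lack of a call in lists of these sizes says little about them. At an unadjusted p under 0.05 these lists held 2, 0, 5, 2, 3, 2 and 2 genes, above the 15.1% of all genes for creatine and adenylate transfer and for atrophy and growth signals and below it for the others. Ckm, the creatine kinase of muscle, came near the limit, at 106299, 140029, 187509, 115056 and 163339 in EDL and 41756, 31912 and 42697 in soleus (−1.87 ± 0.37, edgeR, adjusted p = 0.0123), and no soleus library reached the lowest EDL library.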

How the data were processed

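RNA-seq libraries of *mdm* soleus (n = 3) and *mdm* EDL (n = 5) were compared, with 5 of *mdm* psoas in the same fit. The authors trimmed reads with Trimmomatic 0.32 where quality was low, aligned them with TopHat2 2.1.1 to GRCm38 and deposited whole-number counts per gene, together with a normalized signal, each count over the library's DESeq2 size factor, here called normalized count. How the counting treated overlaps and strand is not given in the sources used here. Groups, ages and codes come from the labels, and the animals behind the libraries are not named.

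From the counts, edgeR 4.0.16 in R 4.3.3 was fitted with TMM and muscle as the factor. The study also fitted the sequencing run, which the labels do not name. Standard errors are the log2 fold change over the square root of F. Alternatives were DESeq2, limma on log2(normalized count + 1), other size factors and filters, fewer libraries, and blocks for label code or replicate number. Symbols, biotypes and coordinates came from GENCODE mouse release 21. Pseudogenes were matched with BLAST 2.17.0. The code was tested on simulated data, where edgeR, DESeq2 1.42.0 and limma 3.58.1 each recovered 100% of 200 genes changed by a log2 of 3 among 17069. They made 2, 6 and 4 false calls. The simulation gave every gene the same spread and changed only the better expressed genes. It checks the code and does not show the power of the real comparison. The members and gene lists were chosen with earlier results of these data known. Named genes are the 15 largest and 15 lowest called log2 fold changes with a full symbol, the called list members, all sarcomere genes, up to 4 abundant uncalled members of each other list and the 5 smallest adjusted p. Others named were chosen after their values were seen: Mstn, Kcng4, Pvalb, Mettl21e and further uncalled list members, the core genes, the noncoding genes of the myosin cluster, and genes of liver, sex chromosomes, fat and lymphatic vessels.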

Additional observations from a re-analysis of the deposited data

Results flagged for a closer look

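In 81 of the 208 genes named by rule, 1 library of the 5 EDL libraries lay far from the rest of its group for 3. This was judged by its gap to the nearest library over the range of the group. Chance gives such a gap in about 1 of 20 genes, so 3 of 81 is no more than that share. Adipoq was at 3154 in EDL replicate 4, with the next library at 1286. Mettl21c was at 631 in EDL replicate 1, with the next at 345. Ucma was at 56.6 in EDL replicate 4, with the next at 29.0. Each of the genes was called, and these values lie towards soleus for Adipoq and Mettl21c and away from it for Ucma.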

How the results depend on the processing

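Against 91 genes higher and 76 lower in soleus, DESeq2 gave 270 and 363, limma on log2 normalized counts 97 and 120, the EDL and soleus libraries alone 54 and 68, a block for the label code 31 and 55, and only the libraries of T4 and T6 under that block 25 and 48. Leaving out 1 library gave 17 to 88 higher and 2 to 87 lower. The cause of these changes was not tested. DESeq2 size factors in edgeR, no filter on low counts and edgeR's own filter kept both counts within 1.5 times. The replicate numbers were not taken to pair the muscles (correlations of same-numbered deviations 0.115, 0.421 and −0.162), and a replicate block gave 81 and 45. Soleus and EDL libraries of the same number came from mice of different ages. The highest correlation between a soleus and an EDL library was 0.442, for soleus replicate 3 and EDL replicate 4, both of code T6 and 38 days old. Whether these share an animal was not tested. None of the 167 called genes changed sign in any alternative, which for the fits without 1 library follows from the lack of overlap. The difference in the share of Myh7 was 49.5 points, 55.3 without division by length, 32.3 with Myh3 and Myh8, 52.1 within T4, 44.8 within T6, and 48.2 to 51.7 without 1 library.

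Uncalled sarcomere genes near 0 changed sign. With 1 library left out, Mybpc1 ran from −0.56 (without soleus replicate 2) to 0.052 (without EDL replicate 2), Actn2 from −0.41 (without soleus replicate 2) to 0.074 (without soleus replicate 3), Csrp3 from −0.30 (without soleus replicate 3) to 0.26 (without soleus replicate 2) and Myl4 from −0.16 (without EDL replicate 1) to 0.22 (without EDL replicate 5). Myl4 was −0.016 with DESeq2, −0.016 with its size factors in edgeR, −0.23 with the code block and −0.35 with T4 and T6 only. The reads carry no molecular identifiers, and the shallowest library, soleus replicate 3 with 9114176 counts, limits low genes most.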

Other observations

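Other called genes, picked after their values were seen, act at membranes and in calcium signals. Slc1a3, a glutamate transporter, was at 66 to 172 in EDL and 508 to 609 in soleus (2.48 ± 0.28), Homer2, a scaffold of calcium signalling, at 157 to 318 and 907 to 1059 (2.23 ± 0.29), and Kcnk3, a background potassium channel, at 6.81 to 27.2 and 87.7 to 155 (2.97 ± 0.44). On the lower side, Dhrs7c, a dehydrogenase of the sarcoplasmic reticulum, was at 921 to 2411 in EDL and 80.7 to 182 in soleus (−3.47 ± 0.65), and Micu3, a regulator of the mitochondrial calcium uniporter, at 269 to 390.2 and 99.3 to 117 (−1.59 ± 0.20). The call of Dhrs7c was lost in every fit without 1 library, while Kcnk3 and Micu3 were called in 6 of those 8 fits. Kcnk3 was not called with the code block. Further genes known from liver were high in soleus replicate 1 alone, with Apob at 175, Serpina1b at 138, Apoa1 at 117 and Cps1 at 108, against at most 3.44, 0.714, 2.55 and 2.18 in the other 7 libraries.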
